A study of Mus musculus with 16 samples.

Results

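Glycolysis splits glucose into pyruvate and yields ATP without oxygen. Pyruvate is then either reduced to lactate by lactate dehydrogenase and carried out of the cell by monocarboxylate transporters, or turned into acetyl-CoA in mitochondria by the pyruvate dehydrogenase complex, which pyruvate dehydrogenase kinases switch off. Several steps can be run by different isoenzymes from separate genes, and pluripotent cells are known for a high glycolytic flux. Described here are 30 mouse genes of this route, chosen by name for their role: 2 glucose transporters, 9 enzymes from hexokinase to triose phosphate isomerase, 2 regulators of phosphofructokinase, 9 enzymes from glyceraldehyde 3-phosphate to pyruvate, 4 genes of lactate, and 4 of pyruvate dehydrogenase. All 30 were measured, out of 15515 named genes that could be tested, with 47 probes. Of these probes 46 stood well above background on every array that gave them a value; the exception was an additional Pfkfb4 probe. The Tpi1 probe and 1 of the Gapdh probes lacked a value on 1 array each.

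The study used 16 single-colour arrays of pluripotent mouse cells of strain 129/Ola, 4 in each of 4 groups. The LIF plus serum group was labelled naive, and its cells were kept in leukaemia inhibitory factor with serum. The EpiSC group (epiblast stem cells) was labelled primed and was grown in Activin A and bFGF, without LIF in its label. Of the 2 groups labelled ground, 2i+LIF received LIF with 2i, a pair of kinase inhibitors against MEK and GSK3, and 2i+SB431542+LIF (2iSB) received in addition SB431542, an inhibitor of the Activin and Nodal receptors. No genetic change is named for any group. Passage numbers ran from 17 to 28, and no label says which arrays come from separately derived lines, so the p-values measure only the spread between these samples, which may be technical. The number of arrays limits the precision.

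A level here is log2 of a gene's probe signal relative to the array's own 75th percentile, and a difference is between group means on that scale. Each array had 51.5% to 63.6% of its probes well above background, and arrays of a group correlated at 0.955 to 0.995. By the call defined below, 7 of 8 naive-state markers were lower in EpiSC than in LIF plus serum (15.6% of all genes). They set the ground states apart less: 3 of 8 were higher in 2i (6.25%) and 3 in 2iSB (6.81%) than in LIF plus serum. Between 2iSB and 2i none was called. Of 6 primed markers 4 were higher in EpiSC than in LIF plus serum (18% of all genes). Otx2 and Dnmt3b were not, at 3.80 and 6.39 in EpiSC against 4.66 and 6.80. Arrays lay on 2 slides: all 4 EpiSC arrays, LIF plus serum arrays 3 and 4, 2i array 4 and 2iSB array 3 on slide 2, and the rest on slide 1. The LIF plus serum arrays of slide 1 carry the code LS and those of slide 2 the code LSFF; neither code is spelled out, and slide and code cannot be told apart there. Fibroblast markers differed in level between the groups: their 12 genes summed to 89.3 to 168 times the 75th percentile signal in LIF plus serum, 354 to 510 in EpiSC, 2.91 to 4.60 in 2i and 2.71 to 3.10 in 2iSB. All are bulk samples, in which fewer cells of a type and less RNA per cell cannot be told apart.

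The enzymes that carry most of the route differed by less than 2-fold between the states. Gpi1, Aldoa, Tpi1, Gapdh, Pgk1, Pgam1, Eno1, Pkm and Ldha, which take glucose 6-phosphate through to lactate together with phosphofructokinase, were called in none of the 6 comparisons between groups. A call required an adjusted p under 0.05 in limma's test over all genes and a difference of at least 2-fold. Over these 9 genes the group means differed by at most 1.88-fold, and their order turned with the scaling. All 9 had their highest mean in LIF plus serum with the 75th percentile, all 9 had it in EpiSC when arrays were centred on their median, and with quantile normalization 1 had it in LIF plus serum and 4 in EpiSC. Tpi1 passed with median centring in EpiSC against 2iSB (1.18, adjusted p = 0.0141), and in 2iSB against LIF plus serum it passed without LIF plus serum array 1 (-1.02) or without 2iSB array 3 (-1.01). The changes lay elsewhere. Hk1, Pfkp, Aldoc, Pgam2 and Ldhb had their lowest mean in EpiSC, and Pfkfb4, Bpgm and Slc16a3 their highest. Eno3 was low in both ground states, and Eno2 in 2i, while the 2iSB arrays were split in Eno2.

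In EpiSC against LIF plus serum 6 of 30 members were called, while 33.6% of all genes tested were. Of these members 1 rose, beside 18% of all genes, and 5 fell, beside 15.6%. The 4 arrays of a group lay wholly above or below those of the other group for 8 members, a share of 26.7%, against 58.8% of all genes. On slide 2 alone, which holds all EpiSC arrays and LIF plus serum arrays 3 and 4, the comparison again called 6 members, 1 higher and 5 lower. The share of all genes called on slide 2 alone is not set beside this count, which shows only how the member calls held.

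Fewer members were called in the ground states against LIF plus serum. In 2i there were 2, beside 18.3% of all genes, with none higher (6.25% of all genes) and 2 lower (12.1%), and 6 members had arrays wholly apart, beside 27.2%. In 2iSB there were 5, beside 20.1% of all genes, with 1 higher (6.81%) and 4 lower (13.3%), and 8 members had arrays wholly apart, beside 29.6%. The 2i count was 6 without 2i array 4, and the 2iSB count 3 without LIF plus serum array 3 or 4, or 2iSB array 2 or 3. The shares of all genes called without these arrays are not set beside these counts, which show only how the member calls moved.

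EpiSC against 2i gave 8 members called, beside 37.4% of all genes, with 4 higher (20.6%) and 4 lower (16.8%), and 12 had arrays wholly apart, beside 55.2%. EpiSC against 2iSB also gave 8, beside 36.3%, with 5 higher (20.1%) and 3 lower (16.2%), and 12 had arrays wholly apart, beside 54.2%. Between 2iSB and 2i no member was called by limma, where 13 genes in all, or 0.0838%, were (0.0129% higher and 0.0709% lower), and none had arrays wholly apart, beside 2.15%. An unadjusted p under 0.05 was found there for 2 members and 867 genes, and the smallest adjusted p of a member was 0.849.

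Without the 2-fold minimum 10 members passed in EpiSC against LIF plus serum, beside 53.3% of all genes, 7 in 2i (30.2%) and 9 in 2iSB (33.8%) against LIF plus serum, and 13 in EpiSC against 2i (56.2%) and 13 against 2iSB (54.8%). These comparisons share groups, so their counts are not independent of each other. With the fold minimum, the share of members called was below that of all genes in each of the 6, though not always by much. In 2iSB against LIF plus serum it was 16.7% beside 20.1%. In 2iSB against 2i only 0.0838% of all genes were called, so the lack of a call among 30 members says little there.

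**Figure D1:**
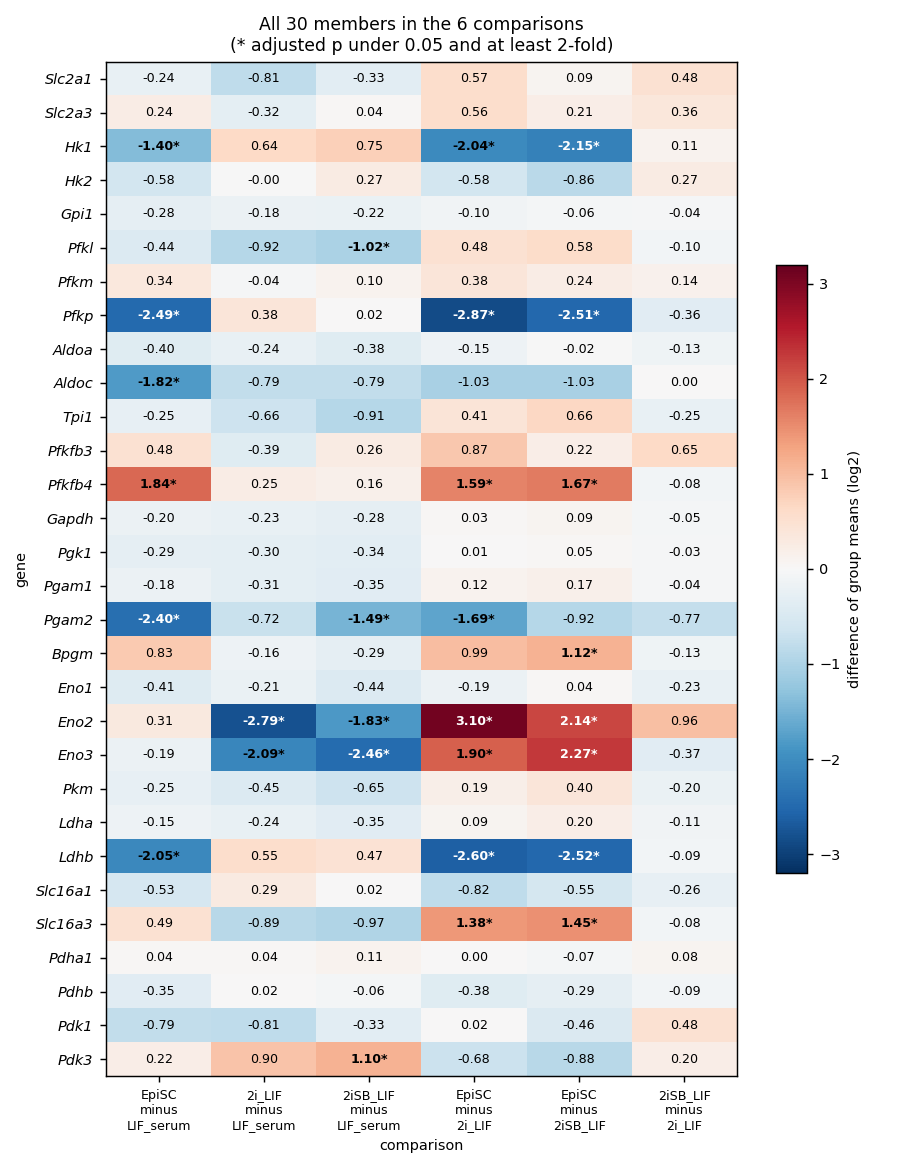
Difference of group means on the log2 scale for each of the 30 members (rows) in the 6 comparisons (columns), with red for higher and blue for lower in the first-named group and an asterisk where a member was called. The rows of Gapdh, Pgk1, Pgam1, Eno1 and Ldha are pale throughout, the deepest cells are Eno2, Eno3, Pfkp, Ldhb, Pgam2 and Hk1, and the last column, 2iSB against 2i, holds no asterisk.

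The mean over the members moved little, and its direction depended on the scaling. Each gene was centred on its own mean, and the 30 were averaged per array (29 on 2i array 3, where the Tpi1 probe was flagged as an outlier and left out). The mean was 0.26 ± 0.19 in LIF plus serum, -0.10 ± 0.17 in EpiSC, -0.09 ± 0.21 in 2i and -0.08 ± 0.16 in 2iSB (SD, n = 4 each). LIF plus serum arrays 3 and 4 were the highest of the 16, at 0.45 and 0.41. When arrays were centred on their median instead, EpiSC had the highest mean, 0.30 ± 0.17, and LIF plus serum stood at 0.12 ± 0.46. That scaling moved all genes: the median difference over all genes tested between EpiSC and LIF plus serum was 0.07 with the 75th percentile and 0.61 with the median, and that over the members -0.25 and 0.28. The members' median was thus below that of all genes in both scalings. Against 2i the members' median in EpiSC was 0.03 beside 0.04 for all genes, and 0.56 beside 0.58 with median centring. Against 2iSB it was 0.07 beside 0.04, and 0.59 beside 0.56.

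**Figure D2:**
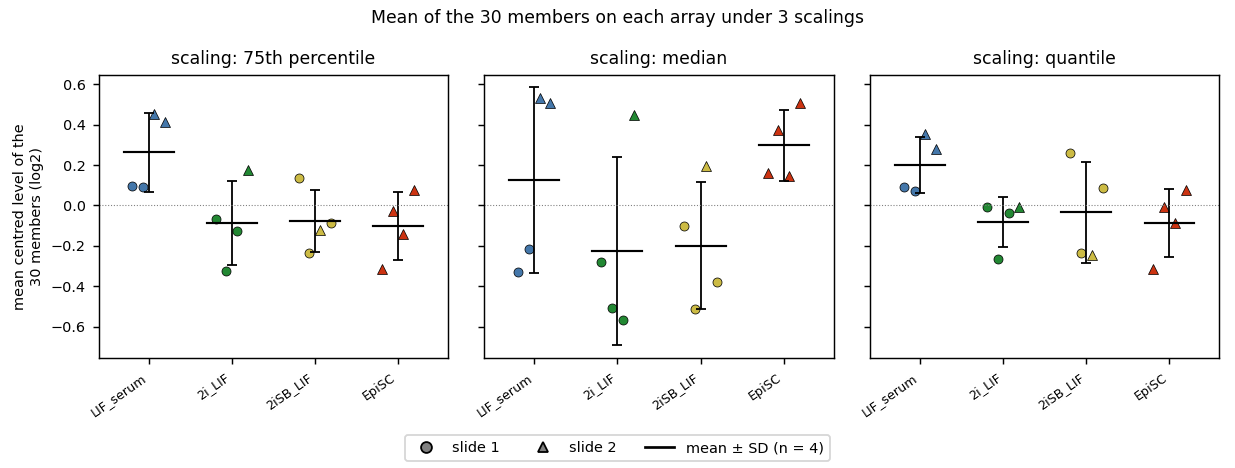
Mean centred level of the members on each array (log2), by group, under 3 scalings of the arrays, with circles for slide 1, triangles for slide 2 and bars for the mean ± SD of 4 arrays. LIF plus serum is highest with the 75th percentile (mean 0.26) and EpiSC with the median (mean 0.30), and the triangles of LIF plus serum and 2i lie above the circles of their group under the median.

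Glucose enters these cells through the transporters Slc2a1 (GLUT1) and Slc2a3 (GLUT3), and neither was called. Slc2a1 had its lowest mean in 2i, and its difference there from LIF plus serum was -0.81. Without 2i array 1 it was -1.03 and passed. With median centring both transporters passed in EpiSC against 2i, with a difference of 1.11 for Slc2a1 and a like one for Slc2a3.

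Hexokinase traps glucose as glucose 6-phosphate, and Hk1, its widely expressed form, was lower in EpiSC than in every other group. Hk1 stood at 3.93, 3.67, 4.82 and 4.73 on LIF plus serum arrays 1 to 4, at 4.63, 4.81, 4.97 and 5.32 in 2i, at 5.85, 4.77, 5.12 and 4.42 in 2iSB, and at 2.64, 3.13, 2.77 and 3.03 in EpiSC. All 4 EpiSC arrays were below all 12 others, and the LIF plus serum arrays of slide 1 were below those of slide 2. Hk1 fell 2.63-fold from LIF plus serum to EpiSC (-1.40 ± 0.31, SE, adjusted p = 0.00152). It was 4.11-fold lower in EpiSC than in 2i (adjusted p = 4.93e-05) and 4.44-fold lower than in 2iSB (adjusted p = 2.99e-05). The call against LIF plus serum was lost with median centring (-0.86, adjusted p = 0.0855) and with the LS arrays alone (-0.91). On slide 2 alone it was -1.89. Both Hk1 probes gave like differences against LIF plus serum, -1.56 and -1.40. Hk2, the inducible hexokinase, was called in no comparison, with a largest difference of -0.86 in EpiSC against 2iSB.

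Phosphofructokinase commits sugar to glycolysis and is built from the liver-type Pfkl, muscle-type Pfkm and platelet-type Pfkp subunits. Pfkp showed the largest fall of any member in EpiSC against LIF plus serum and against 2i, and against 2iSB it was matched only by Ldhb. Its levels were 4.07, 3.96, 4.19 and 4.20 in LIF plus serum, 4.63, 4.23, 4.41 and 4.66 in 2i, 4.57, 4.02, 3.98 and 3.93 in 2iSB, and 1.00, 1.68, 1.63 and 2.14 in EpiSC. The 2i arrays all lay slightly above those of LIF plus serum, 2iSB overlapped both, and EpiSC lay far below all 3. Pfkp was 5.62-fold lower in EpiSC than in LIF plus serum (-2.49 ± 0.21, SE, adjusted p = 2.62e-07), 7.31-fold lower than in 2i (adjusted p = 3.19e-08) and 5.68-fold lower than in 2iSB (adjusted p = 1.34e-07). On slide 2 alone the difference from LIF plus serum was -2.58. An additional, dimmer Pfkp probe moved the same way by less, with -0.99, -1.20 and -1.01 in these 3 comparisons, so the size of the fall differs between probes.

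Pfkl instead was highest in LIF plus serum, at 3.90, 3.68, 4.44 and 4.10. It read 3.21, 3.75, 3.58 and 3.83 in EpiSC, 3.11, 2.72, 3.15 and 3.44 in 2i, and 3.32, 2.80, 2.95 and 2.97 in 2iSB. No ground-state array reached a LIF plus serum array. Only the 2.03-fold fall in 2iSB was called (-1.02 ± 0.20, SE, adjusted p = 0.00159). That call sat at the 2-fold limit and was lost in 9 of 32 alternatives, among them the removal of LIF plus serum array 3 (-0.88), LIF plus serum array 4 (-0.996), 2iSB array 2 (-0.95) or 2iSB array 3 (-0.999). The difference in 2i, -0.92, missed the fold minimum (adjusted p = 0.00348), and it passed without LIF plus serum array 2 or 2i array 4. Pfkm was called nowhere.

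Pfkfb enzymes set the level of fructose 2,6-bisphosphate, the strongest activator of phosphofructokinase. Pfkfb4 was the only member that rose in EpiSC against all 3 other groups; with median centring Bpgm and Slc16a3 did too. Its levels were -0.59, -0.85, -0.76 and -0.61 in LIF plus serum, -0.91, -0.17, -0.74 and 0.00 in 2i, -0.46, -0.74, -0.57 and -0.40 in 2iSB, and 1.06, 1.22, 1.26 and 0.99 in EpiSC. The EpiSC arrays stood together above all 12 others. The rise was 3.57-fold over LIF plus serum (1.84 ± 0.18, SE, adjusted p = 1.23e-06), 3.01-fold over 2i (adjusted p = 3.43e-06) and 3.19-fold over 2iSB (adjusted p = 2.01e-06). Pfkfb3, a paralogue with a strong kinase activity, spread widely within LIF plus serum, at 1.89 and 2.12 on the LS arrays and 3.57 and 3.66 on the LSFF arrays, and was not called. Without 2i array 1 it passed in EpiSC against 2i (1.22).

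Aldolase splits fructose 1,6-bisphosphate, and its brain-type isoenzyme Aldoc fell in EpiSC while the muscle and general form Aldoa was not called. Aldoc stood at 5.59, 5.73, 6.37 and 6.54 in LIF plus serum, 5.31, 4.22, 5.69 and 5.84 in 2i, 6.38, 4.75, 4.52 and 5.41 in 2iSB, and 3.64, 4.40, 3.97 and 4.91 in EpiSC. Every EpiSC array was below every LIF plus serum array, but EpiSC overlapped both ground states. Aldoc fell 3.54-fold from LIF plus serum to EpiSC (-1.82 ± 0.43, SE, adjusted p = 0.00262). Its difference from EpiSC to 2i and to 2iSB, -1.03 in each, did not pass. That from 2i passed without EpiSC array 4, 2i array 2, 2iSB array 1 or 2iSB array 3, and that from 2iSB without EpiSC array 4, 2i array 2, 2iSB array 2 or 2iSB array 3, with differences of -1.38 to -1.03 over both.

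**Figure D3:**
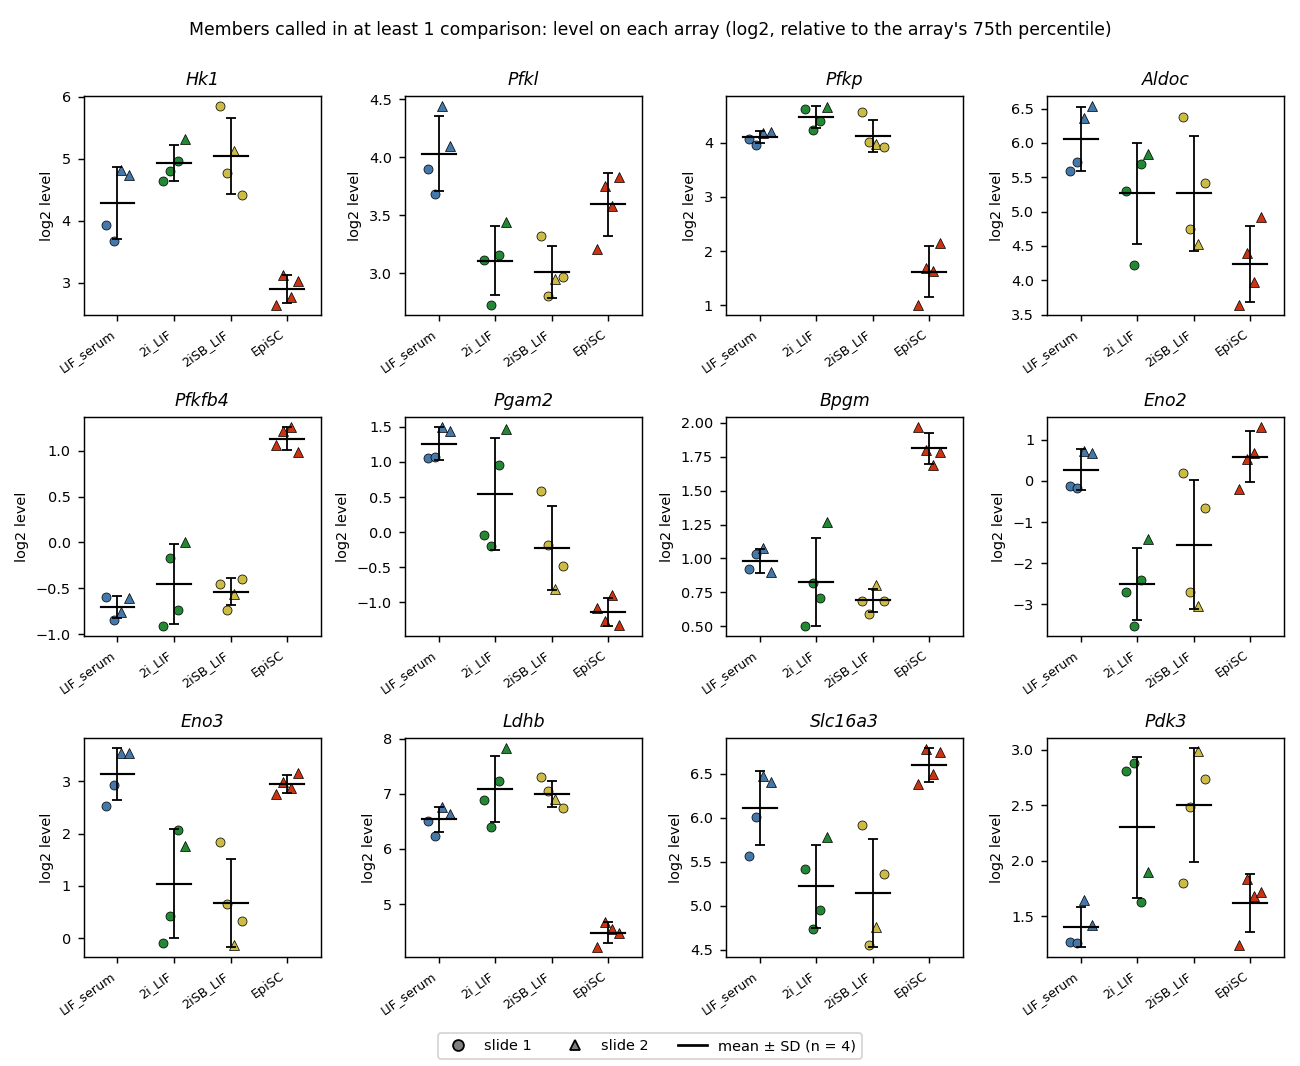
Level on each array (log2 relative to the array's 75th percentile, vertical axis) of the 12 members called in at least 1 comparison, by group, with circles for slide 1, triangles for slide 2 and bars for the mean ± SD of 4 arrays. EpiSC stands apart below the other groups in Hk1, Pfkp, Pgam2 and Ldhb and above them in Pfkfb4 and Bpgm, while Eno2 spreads from -3.04 to 0.20 within 2iSB.

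The promoters of 5 members with contrasting behaviour are shown so that a reader can compare their sequence: Pfkp and Ldhb, low in EpiSC, Pfkfb4 and Slc16a3, high in EpiSC, and Ldha, which was called nowhere. Each is the 250 bases before a RefSeq start site in build GRCm38.p6, on the gene's strand, and capitals mark every ACGTG or GCGTG, read on either strand, the core of the sites bound by hypoxia-inducible factors. Where both strands of CACGTG match, the overlapping matches are marked as a single run. Ldha has a further annotated start site that is not shown.
Pfkp (chr13:6648772-6649021, minus strand): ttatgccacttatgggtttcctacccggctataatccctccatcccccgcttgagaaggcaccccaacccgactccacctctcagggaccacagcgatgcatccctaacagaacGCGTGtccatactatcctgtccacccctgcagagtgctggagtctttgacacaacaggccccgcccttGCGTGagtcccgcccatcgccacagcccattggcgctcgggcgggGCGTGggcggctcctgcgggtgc
Ldhb (chr6:142507958-142508207, minus strand): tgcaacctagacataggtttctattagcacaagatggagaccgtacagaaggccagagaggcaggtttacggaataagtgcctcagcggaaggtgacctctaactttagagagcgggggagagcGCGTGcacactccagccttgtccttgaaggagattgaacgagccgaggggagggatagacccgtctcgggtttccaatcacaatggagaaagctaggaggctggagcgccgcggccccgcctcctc
Pfkfb4 (chr9:108991652-108991901, plus strand): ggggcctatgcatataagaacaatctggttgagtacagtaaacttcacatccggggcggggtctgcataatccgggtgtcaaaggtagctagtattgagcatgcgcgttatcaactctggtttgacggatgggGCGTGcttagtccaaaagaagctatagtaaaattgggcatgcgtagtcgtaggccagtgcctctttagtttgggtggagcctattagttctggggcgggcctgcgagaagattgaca
Slc16a3 (chr11:120948817-120949066, plus strand): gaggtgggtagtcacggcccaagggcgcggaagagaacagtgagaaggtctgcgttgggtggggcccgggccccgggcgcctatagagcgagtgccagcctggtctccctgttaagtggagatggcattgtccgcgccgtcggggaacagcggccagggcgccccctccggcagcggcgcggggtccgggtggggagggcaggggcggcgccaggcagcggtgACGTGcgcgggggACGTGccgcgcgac
Ldha (chr7:46845554-46845803, plus strand): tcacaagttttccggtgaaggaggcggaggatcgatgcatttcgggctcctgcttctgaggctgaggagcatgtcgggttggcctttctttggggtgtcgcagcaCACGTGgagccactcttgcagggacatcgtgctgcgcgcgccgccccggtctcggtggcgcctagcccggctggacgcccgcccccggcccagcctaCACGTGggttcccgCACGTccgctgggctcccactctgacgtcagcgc

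The marked letters were present in members that fell, rose or stayed. Pfkp has 3 marked places, Ldhb 1, Pfkfb4 1, Slc16a3 2 and Ldha 3. Of 42 promoters of 29 matched members, 76.2% held ACGTG or GCGTG, against 38.6% of 32851 promoters of the same length. The members' promoters had a median of 60.4% G and C and all promoters 52.4%, which bears on how often such letters occur. ACGTG alone was in 38.1% of member promoters and 16.6% of all, GCGTG in 54.8% and 28.2%, and the palindrome CACGTG, which contains ACGTG, in 9.52% and 6.02%. TNAAGGTCA, the site of the naive-state factor Esrrb, was in none of the 42, and in 1.14% of all. A match is only a stretch of letters, and no binding was measured.

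In the payoff phase of glycolysis Gapdh, Pgk1, Pgam1, Eno1 and Pkm were called nowhere, and the isoenzymes of muscle and nerve moved. Pgam2, the muscle phosphoglycerate mutase, stood at 1.05, 1.07, 1.5 and 1.43 in LIF plus serum, -0.04, -0.20, 0.96 and 1.47 in 2i, 0.58, -0.19, -0.81 and -0.48 in 2iSB, and -1.08, -1.27, -0.89 and -1.33 in EpiSC. EpiSC was below every other array. Pgam2 fell 5.28-fold from LIF plus serum to EpiSC (-2.40 ± 0.35, SE, adjusted p = 4.32e-05) and was 3.22-fold lower in EpiSC than in 2i (adjusted p = 0.000777). It was 2.80-fold lower in 2iSB than in LIF plus serum (adjusted p = 0.00463), a call lost in 3 of 32 alternatives. The difference between EpiSC and 2iSB, -0.92, was under the fold minimum and passed without 2iSB array 3 (-1.11) or 2iSB array 4 (-1.0), and that between 2i and LIF plus serum passed without 2i array 4 (-1.02).

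Bpgm makes 2,3-bisphosphoglycerate, a side product best known from red blood cells. Its levels were 0.92, 1.03, 1.08 and 0.90 in LIF plus serum, 0.50, 0.82, 0.71 and 1.27 in 2i, 0.68, 0.59, 0.80 and 0.68 in 2iSB, and 1.97, 1.80, 1.69 and 1.78 in EpiSC. All EpiSC arrays were the highest. The rise was 2.17-fold over 2iSB (1.12 ± 0.15, SE, adjusted p = 1.43e-05). The differences from LIF plus serum, 0.83, and from 2i, 0.99, were short of 2-fold, with limma's adjusted p of 0.000296 and 4.94e-05, and with median centring both passed, at 1.37 and 1.52. That from 2i also passed without EpiSC array 3 or 2i array 4. With the slide as a block the difference from 2iSB was 0.95, just under the fold minimum.

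The enolases turn 2-phosphoglycerate into phosphoenolpyruvate. The neuronal form Eno2 was at -0.13, -0.17, 0.73 and 0.67 in LIF plus serum, -0.20, 0.53, 0.69 and 1.32 in EpiSC, -2.70, -3.53, -2.41 and -1.40 in 2i, and 0.20, -2.70, -3.04 and -0.67 in 2iSB. LIF plus serum and EpiSC overlapped, 2i lay below both, and 2iSB was split, with array 1 inside the LIF plus serum range and arrays 2 and 3 far below it. Eno2 fell 6.91-fold from LIF plus serum to 2i (-2.79 ± 0.64, SE, adjusted p = 0.00433) and 3.55-fold to 2iSB (adjusted p = 0.0378). It was 8.55-fold higher in EpiSC than in 2i (adjusted p = 0.000752) and 4.40-fold higher than in 2iSB (adjusted p = 0.0103). The 2iSB call against LIF plus serum was lost in 10 of 32 alternatives, among them the removal of LIF plus serum array 3 (adjusted p = 0.093), LIF plus serum array 4 (0.0891), 2iSB array 2 (0.119) or 2iSB array 3 (0.12), and passage as a covariate (-0.43). With passage as a covariate the difference between EpiSC and 2iSB was 0.65 and did not pass (adjusted p = 0.438). The call in 2i against LIF plus serum was lost on slide 1 alone (-2.74, adjusted p = 0.0592) and with the LS arrays alone (-2.37, adjusted p = 0.0594).

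The muscle enolase Eno3 was also low in both ground states. It stood at 2.52, 2.93, 3.55 and 3.55 in LIF plus serum, 2.76, 2.99, 2.88 and 3.16 in EpiSC, -0.09, 0.42, 2.07 and 1.77 in 2i, and 1.85, 0.66, -0.13 and 0.33 in 2iSB. No ground-state array reached the other 2 groups. Eno3 was 4.26-fold lower in 2i than in LIF plus serum (-2.09 ± 0.47, SE, adjusted p = 0.00401) and 5.52-fold lower in 2iSB (adjusted p = 0.00118). EpiSC exceeded 2i by 3.74-fold (adjusted p = 0.00308) and 2iSB by 4.84-fold (adjusted p = 0.000814). With the LS arrays alone the difference of Eno3 in 2i was -1.68 and did not pass (adjusted p = 0.0631). On slide 1 alone, with 2 LIF plus serum arrays, the differences of Eno3 were -1.93 in 2i and -1.78 in 2iSB and neither passed (adjusted p = 0.108 and 0.128). Eno1, the general enolase, differed from LIF plus serum by -0.41 in EpiSC, -0.21 in 2i and -0.44 in 2iSB.

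Pyruvate and lactate are exchanged by lactate dehydrogenase, whose heart-type subunit Ldhb favours the step back to pyruvate. Ldhb stood at 6.50, 6.24, 6.76 and 6.64 in LIF plus serum, 6.88, 6.40, 7.22 and 7.83 in 2i, 7.30, 7.06, 6.90 and 6.74 in 2iSB, and 4.22, 4.68, 4.54 and 4.48 in EpiSC. The EpiSC arrays lay close together and below all others. Ldhb was 4.15-fold lower in EpiSC than in LIF plus serum (-2.05 ± 0.25, SE, adjusted p = 7.13e-06), 6.08-fold lower than in 2i (adjusted p = 4.03e-07) and 5.73-fold lower than in 2iSB (adjusted p = 5.55e-07). On slide 2 alone the difference from LIF plus serum was -2.22. These calls held in all 31 alternatives run for each. The muscle-type subunit Ldha, which favours lactate, differed in EpiSC from LIF plus serum by -0.15, from 2i by 0.09 and from 2iSB by 0.20.

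Lactate leaves glycolytic cells mainly by Slc16a3 (MCT4), and Slc16a1 (MCT1) carries it both ways. Slc16a3 read 5.57, 6.0, 6.48 and 6.40 in LIF plus serum, 5.42, 4.74, 4.95 and 5.78 in 2i, 5.91, 4.55, 4.76 and 5.36 in 2iSB, and 6.38, 6.77, 6.50 and 6.74 in EpiSC. EpiSC was above every ground-state array and overlapped LIF plus serum. It was 2.60-fold higher in EpiSC than in 2i (1.38 ± 0.30, SE, adjusted p = 0.00132) and 2.73-fold higher than in 2iSB (adjusted p = 0.00088). The first of these was 0.81 on slide 2 alone, where 2i has 1 array, and the second 0.82 with passage as a covariate (adjusted p = 0.0621). With median centring it also rose in EpiSC over LIF plus serum (1.02, adjusted p = 0.0344). Against LIF plus serum Slc16a3 differed by -0.89 in 2i and -0.97 in 2iSB, under the fold minimum. The first passed without LIF plus serum array 1 or 2i array 4, and the second without LIF plus serum array 1 or 2, or 2iSB array 1 or 4. Slc16a1 was not called, though it passed in EpiSC against 2i without 2i array 4 (-1.02), and it was the only member whose arrays separated by slide: they lay at -2.68 to -2.25 on slide 1 and -3.56 to -3.22 on slide 2, whatever the group. Such a separation was found in 5.42% of all genes tested.

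Eno2, Eno3 and Slc16a3 had lower means in both ground states than in LIF plus serum and EpiSC, and the fibroblast markers were lower there too. Of the 12 fibroblast markers 10 were called higher in EpiSC than in LIF plus serum and 12 higher than in each ground state, and Dcn, Lum and Postn were not well above background on any ground-state array. LIF plus serum arrays 1 and 2, with marker sums of 168 and 140, had Eno3 at 2.52 and 2.93. Arrays 3 and 4, with 91.7 and 89.3, both had 3.55. The sums follow the brightest markers and understate this gap. The mean log2 level over the 12 markers was 2.13 and 1.91 on arrays 1 and 2, but -0.85 and -0.89 on arrays 3 and 4. All 12 were well above background on arrays 1 and 2, and 10 on arrays 3 and 4. Slide and code divide these 4 arrays in the same way, so the markers cannot be told apart from them. In EpiSC a single array, number 4, had the lowest marker sum, 354, and the highest Eno2 and Eno3, 1.32 and 3.16. Within 2iSB the marker sum stayed between 2.71 and 3.10 while Eno2 ran from -3.04 to 0.20. Muscle markers, relevant to Eno3 and Pgam2, summed to 2.01 to 5.46 in LIF plus serum, 0.695 to 1.01 in EpiSC, 1.57 to 2.81 in 2i and 1.68 to 3.19 in 2iSB, and Myog was well above background on no array. Neural markers, relevant to Eno2 and Aldoc, summed to 10.4 to 15.0, 23.9 to 30.1, 14.1 to 21.2 and 11.1 to 19.7 in the same order of groups. The calls in EpiSC, in either direction, go with the same gap in fibroblast markers between the groups. The part of other cell types in these results was not tested.

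**Figure D4:**
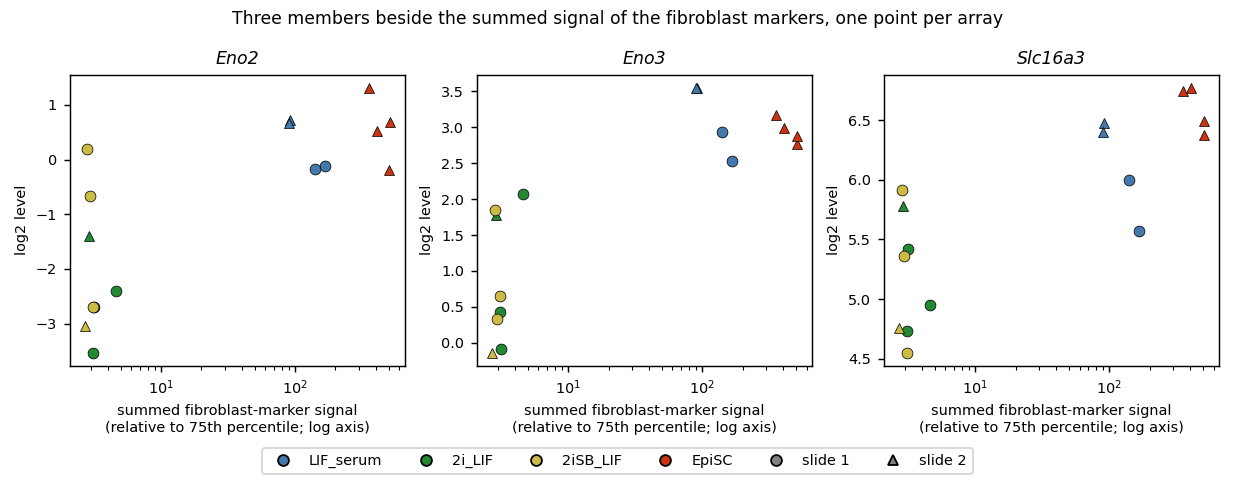
Level of Eno2, Eno3 and Slc16a3 (log2, vertical axes) against the summed signal of the 12 fibroblast markers on the same array (horizontal log axis), 1 point per array, coloured by group, with circles for slide 1 and triangles for slide 2. The ground-state arrays gather at 2.71 to 4.60 with a wide vertical spread. Within LIF plus serum the 2 arrays with the higher marker sums are the lower ones in Eno3 and Slc16a3, and they are also the 2 of slide 1.

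At the entry to mitochondria, the pyruvate dehydrogenase subunits Pdha1 and Pdhb and the kinase Pdk1 were called nowhere. Pdk3, a kinase that inactivates the complex, read 1.27, 1.26, 1.65 and 1.42 in LIF plus serum, 2.81, 2.88, 1.63 and 1.90 in 2i, 1.80, 2.49, 2.99 and 2.74 in 2iSB, and 1.24, 1.83, 1.68 and 1.72 in EpiSC. The 2iSB arrays were above all LIF plus serum arrays, and 2i was split. Pdk3 rose 2.15-fold in 2iSB (1.1 ± 0.30, SE, adjusted p = 0.0105), and the difference in 2i, 0.90, was under the fold minimum (adjusted p = 0.0318) and passed without 2i array 3 or 2i array 4. In EpiSC against 2iSB it was -0.88, and it passed without 2iSB array 1 (-1.12). Without 2iSB array 3 the rise was 0.94, and 4 of 32 alternatives lost the call. Pdk1 was split by code within LIF plus serum, at 3.21 and 3.32 on the LS arrays and 2.52 and 2.51 on the LSFF arrays.

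Balance between isoenzymes was measured within each array, as the log2 level of a gene less that of its partner. Such a ratio does not move with a scaling that adds a constant to an array, but its zero has no meaning, because the probes differ in brightness, so only its change between groups is given. Over the 4 groups 11 of 12 pairs passed an exact permutation test of the F statistic over all 2627625 divisions of the 16 arrays, adjusted over the 12 pairs. The share of other gene pairs that would pass was not measured. In EpiSC against LIF plus serum 53.3% of all genes passed limma's test at any size. The count alone therefore does not set these pairs apart from other genes. With 4 arrays against 4 an exact two-sided test cannot go below p = 0.0286, and none of 72 tests of a pair in a single comparison passed after adjustment, the smallest adjusted p being 0.0623. Most pairs hold a member called above, so they are not independent of those calls.

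The phosphofructokinase pair Pfkp over Pfkl separated the states most cleanly. Its ratio was 0.08 ± 0.23 in LIF plus serum, -1.98 ± 0.22 in EpiSC, 1.38 ± 0.16 in 2i and 1.11 ± 0.14 in 2iSB (SD, n = 4; exact permutation p = 7.6e-07, adjusted 9.1e-06). The ground states lay above LIF plus serum and EpiSC below it, with no overlap between these 3 levels, and only 2i and 2iSB overlapped. The ratio was 10.2-fold lower in EpiSC than in 2i and 8.51-fold lower than in 2iSB. These folds rest on the brighter Pfkp probe. The dimmer Pfkp probe differed by only -1.20 and -1.01 in these comparisons, so the size of the shift depends on the probe. With the mean of all probes of a gene the pair passed too (exact permutation test, adjusted p = 2.7e-05). Pfkm over Pfkl was lowest in LIF plus serum, at -1.42 ± 0.15, and stood at -0.64 ± 0.08 in EpiSC, -0.54 ± 0.31 in 2i and -0.30 ± 0.14 in 2iSB (SD, n = 4; exact permutation test, adjusted p = 0.00085). Neither Pfkm nor, outside 2iSB, Pfkl was called by itself.

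Ldhb over Ldha ran in the same order of states. It was -2.12 ± 0.11 in LIF plus serum, -4.02 ± 0.30 in EpiSC, -1.33 ± 0.40 in 2i and -1.30 ± 0.31 in 2iSB (SD, n = 4; exact permutation p = 3e-05, adjusted 0.00018). The lowest ground-state array, at -1.76, was above the highest LIF plus serum array, at -2.01, and the highest EpiSC array stood at -3.70. The balance thus moved 3.73-fold toward Ldha in EpiSC and 1.73-fold and 1.76-fold toward Ldhb in 2i and 2iSB, each against LIF plus serum. Pgam2 over Pgam1 fell from -6.97 ± 0.09 in LIF plus serum to -9.19 ± 0.28 in EpiSC, with -7.38 ± 0.70 in 2i and -8.10 ± 0.71 in 2iSB (SD, n = 4; exact permutation test, adjusted p = 0.0023).

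The enolase pairs set the ground states apart. Eno3 over Eno1 was -5.22 ± 0.50 in LIF plus serum, -5.01 ± 0.26 in EpiSC, -7.10 ± 0.99 in 2i and -7.24 ± 0.88 in 2iSB (SD, n = 4; exact permutation test, adjusted p = 0.006). Eno2 over Eno1 was lowest in 2i at -10.66 ± 0.77, and -9.47 ± 1.63 in 2iSB overlapped -8.08 ± 0.47 in LIF plus serum (SD, n = 4; exact permutation test, adjusted p = 0.012). Hk2 over Hk1 was highest in EpiSC, at 1.43 ± 0.23 against 0.62 ± 0.78 in LIF plus serum, -0.02 ± 0.32 in 2i and 0.14 ± 0.62 in 2iSB (SD, n = 4; exact permutation test, adjusted p = 0.017), and EpiSC overlapped LIF plus serum. Slc16a3 over Slc16a1 (adjusted p = 0.012, exact permutation test) was also highest in EpiSC, but holds the gene that separated by slide.

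The other pairs were closer to the threshold in the same exact permutation test. Pdk1 over Pdk3 was highest in LIF plus serum, 1.49 ± 0.60 against -0.22 ± 0.75 in 2i (adjusted p = 0.014, exact permutation test). Slc2a3 over Slc2a1 (adjusted p = 0.036) was lowest in LIF plus serum and Aldoc over Aldoa (adjusted p = 0.041) lowest in EpiSC, while Pfkfb4 over Pfkfb3 (adjusted p = 0.058) missed. When arrays were permuted only within their slide, 7 pairs passed, and Hk2 over Hk1, Aldoc over Aldoa, Eno2 over Eno1, Slc16a3 over Slc16a1 and Pfkfb4 over Pfkfb3 did not. On slide 1 alone, which has no EpiSC array, only Pfkp over Pfkl passed.

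**Figure D5:**
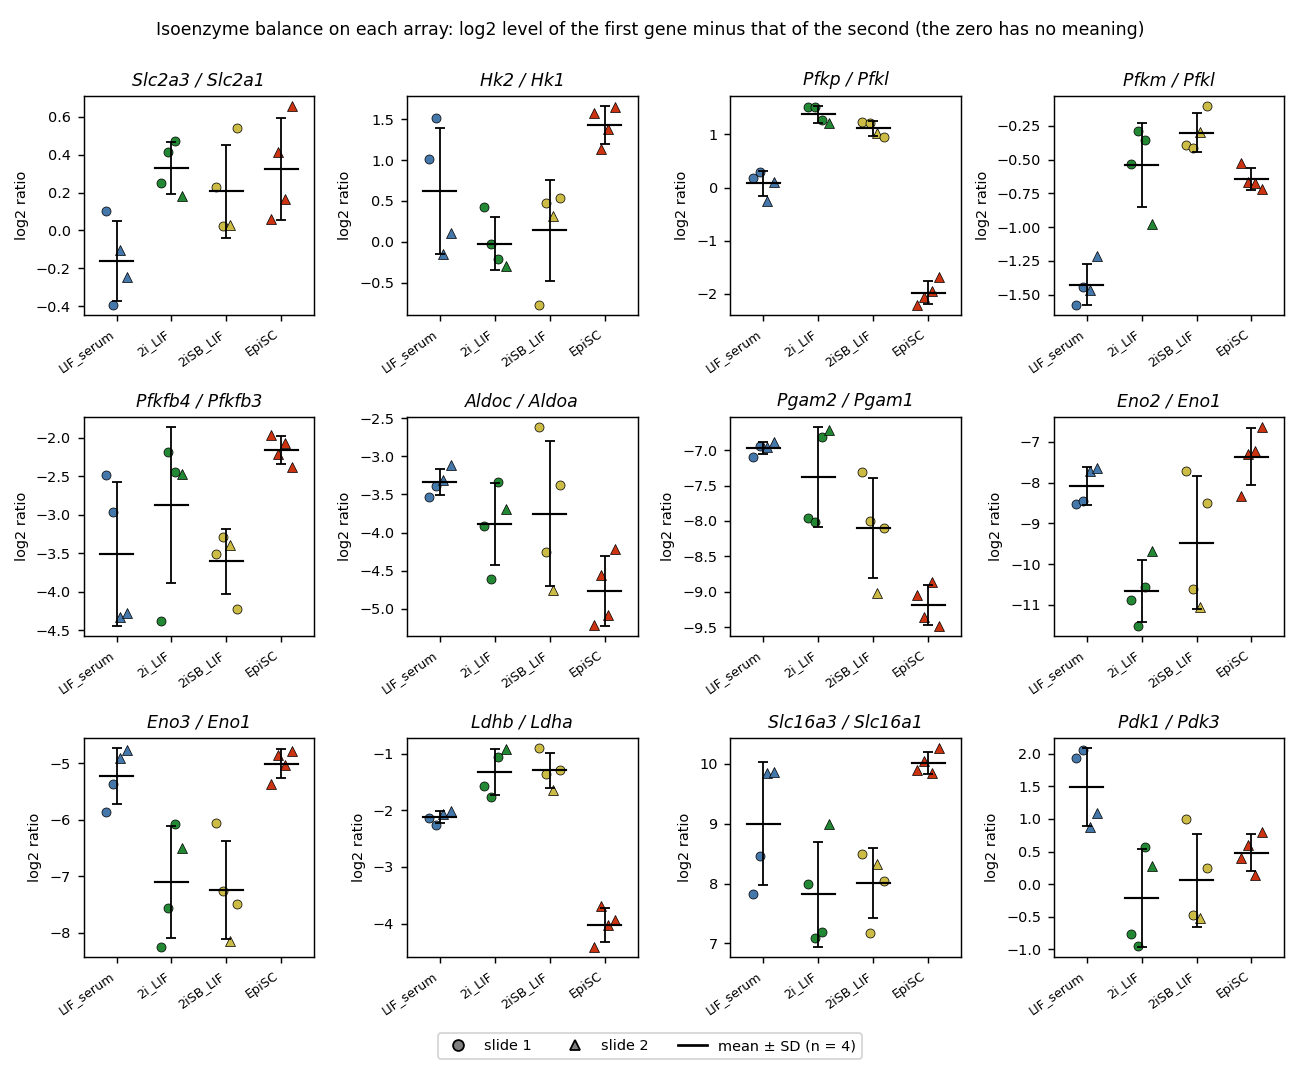
Log2 ratio of the 12 isoenzyme pairs on each array (vertical axes; the zero has no meaning) by group, with circles for slide 1, triangles for slide 2 and bars for the mean ± SD of 4 arrays. Pfkp over Pfkl and Ldhb over Ldha show 3 separate levels, with EpiSC lowest (means -1.98 and -4.02), LIF plus serum between and both ground states highest.

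Some other genes of sugar and pyruvate metabolism were called as well, as were many genes of all kinds. Of 14 tested genes of gluconeogenesis and other glycolytic isoenzymes, 1 rose and 4 fell in EpiSC against LIF plus serum. There 33.6% of all genes were called, 18% higher and 15.6% lower. The genes named next are those of largest size among the called. Fbp1, a fructose 1,6-bisphosphatase, which runs the phosphofructokinase step backwards, was 13.6-fold lower (adjusted p = 4.4e-07), and its paralogue Fbp2 at least 9.01-fold lower (adjusted p = 1.01e-05). Fbp2 did not stand well above background in any of the 4 EpiSC samples, and the bound sets the mean of LIF plus serum against the dimmest signal still well above background. Pcx, which carboxylates pyruvate to oxaloacetate, was 3.34-fold lower (adjusted p = 1.2e-05), and Pck2, the mitochondrial phosphoenolpyruvate carboxykinase, 2.98-fold higher (adjusted p = 6.49e-06). Fbp1 and Pck2 were also called in the same direction in EpiSC against 2i and 2iSB. Pcx was too, with -1.69 and -1.47, but against 2iSB it was -0.95 with median centring and not called. The same list gave no rise and 1 fall of 14 in 2i against LIF plus serum (6.25% and 12.1% of all genes) and 1 and 2 in 2iSB (6.81% and 13.3%).

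Of 15 tested genes that handle lactate and pyruvate outside the members, 1 rose and 5 fell in EpiSC against LIF plus serum, beside the same shares of all genes. The testis-type lactate dehydrogenase Ldhc had a fitted difference of -6.80 (adjusted p = 4.49e-08) and was well above background on 1 of 4 EpiSC arrays. The testis-type pyruvate dehydrogenase subunit Pdha2 was well above background on none of them and at least 10.66-fold lower (adjusted p = 8.19e-05), and Ldhd, a D-lactate dehydrogenase, was 9.14-fold lower (adjusted p = 0.000171). Dlat, a core subunit of the pyruvate dehydrogenase complex, rose 2.39-fold (adjusted p = 0.000377). Against LIF plus serum 2 of 15 rose in 2i (6.25% of all genes) and 1 fell (12.1%). In 2iSB 3 rose (6.81%) and 2 fell (13.3%). Mpc1, a subunit of the carrier that brings pyruvate into mitochondria, rose 3.21-fold in 2i (adjusted p = 8.29e-05) and 3.02-fold in 2iSB (adjusted p = 0.000108), and was 4.76-fold lower in EpiSC than in 2i. The complex subunit Pdhx rose by 1.07 and the kinase Pdk2 fell by 1.49 on the log2 scale in 2i, but on slide 1 alone they differed by 0.52 and -0.96 and neither passed. None of 7 pentose phosphate genes was called in any of the 6 comparisons.

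Many members are textbook targets of hypoxia-inducible factors, so 14 other tested genes of that response were set beside them. In EpiSC against LIF plus serum 4 of 14 rose, beside 18% of all genes, and none fell, beside 15.6%. These were Hif1a (2.08-fold, adjusted p = 0.00912), Vegfa (2.02-fold, adjusted p = 0.0103), Adm (4.11-fold, adjusted p = 0.0355) and Car9 (4.94-fold, adjusted p = 0.0179). The median of the 14 was 0.00, beside 0.07 over all genes. Hif1a and Vegfa sat near the 2-fold limit and were not called with quantile scaling, at 0.95 and 0.91. In the ground states 6 of 14 fell in 2i and 3 in 2iSB, beside 12.1% and 13.3% of all genes, with medians of -0.96 and -0.68, and none rose (6.25% and 6.81% of all genes). With median centring 4 and 2 fell. EpiSC exceeded 2i in 5 of 14 (20.6% of all genes) and 2iSB in 3 (20.1%), with none lower (16.8% and 16.2%). Under median centring EpiSC exceeded them in 8 and 6, but there the median difference over all genes was 0.58 and 0.56. The shares of all genes called under median centring are not set beside the counts with that scaling. The most changed of the 14 in EpiSC were Car9, a carbonic anhydrase, and Adm, the hormone adrenomedullin. On the log2 scale Car9 differed by 4.52 from 2i and 4.82 from 2iSB, and Adm by 4.43 and 3.79. Ldha, Pgk1, Slc2a1 and Pdk1, members that are also known targets, were called in none of these comparisons with the 75th percentile. Other members were called in both directions. Pfkfb4 was higher in EpiSC than in every other group and Slc16a3 higher than in 2i (1.38) and 2iSB (1.45), while Aldoc was lower than in LIF plus serum (-1.82). The members were not sorted into targets and others, and a link to the hypoxia response was not tested.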

How the data were processed

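Per the file headers, the authors' scanner files are single-colour Agilent arrays read with Feature Extraction 10.7.1.1. The deposited processed signal, an intensity, is already background-subtracted. The deposited value table, which holds log2 values of the authors, served as an alternative; per the submitters' processing notes limma was among their tools. Spots flagged as outliers were left out and spots of a probe averaged. Log2 intensity less the array's 75th percentile over 55681 probes was the level. A gene entered the test, by its brightest probe, when all 4 arrays of at least 1 group had that probe well above background. Groups were compared with limma 3.58.1 (lmFit, eBayes, 4 group means, 16 arrays), with Benjamini-Hochberg adjustment over 15515 genes in each comparison. A call needs an adjusted p under 0.05 and at least 2-fold. Isoenzyme pairs were tested by exact permutation. Scripts were tested on simulated data. Members and other genes are named through RefSeq accessions; all members and lists were chosen with earlier results of these data known. Named are members called in at least 1 comparison, which are also those whose group means span at least 1 (log2), with up to 4 called genes of each other list. The normexp alternative used median, not mean, spot signals, with an offset of 50. Promoters are from RefSeq.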

Additional observations from a re-analysis of the deposited data

Results flagged for a closer look

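In 3 of 119 sets of 4 arrays checked for a member, a single array stood apart by Dixon's criterion; chance alone marks about 1 set in 20. Slc2a3 on 2i array 1 stood at 7.48, above the other 2i arrays at 6.66 to 6.77 (gap over range 0.874). Pfkp on 2iSB array 1 stood at 4.57, above the others at 3.93 to 4.02 (0.856). Slc16a1 on 2iSB array 3 stood at -3.56, below the others at -2.68 to -2.58 (0.894), and it is the only 2iSB array on slide 2.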

How the results depend on the processing

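Of 29 member calls, 17 held in every alternative run (31 or 32 each), 8 were lost in 1 or 2 and 4 in 3 or more; no called difference changed sign in the alternatives run. With median centring, which moved all genes, EpiSC against 2i gave 13 members called. The members' median differences in EpiSC were then 0.28 against LIF plus serum, 0.56 against 2i and 0.59 against 2iSB. Over all genes tested they were 0.61, 0.58 and 0.56. With quantile normalization the median was -0.0088 in EpiSC and -0.019 in 2iSB against LIF plus serum, and in the deposited table -0.054 and -0.034. The slide as a block left 3 calls in 2iSB against LIF plus serum, a median of -0.12 in EpiSC against 2iSB, and 7 isoenzyme pairs. Slide 1 alone gave 1 call in 2i and 0 in 2iSB against LIF plus serum and 1 pair. Slide 2 alone, with 1 array each of 2i and 2iSB, assumed to vary like the other groups, gave 5 calls in 2i against LIF plus serum, 4 in 2iSB against 2i, and a median of -0.14 in EpiSC against 2iSB. LS arrays alone gave a median of -0.043 in EpiSC against LIF plus serum and 3 calls in 2iSB, and LSFF arrays alone 6 calls in 2i. Passage as a covariate left 1 call in 2iSB against LIF plus serum and a median of -0.12 in EpiSC against 2iSB. Without a fold minimum there were 10, 7, 9, 13 and 13 calls in EpiSC, 2i and 2iSB against LIF plus serum and in EpiSC against 2i and 2iSB. Apart from those without a fold minimum, the counts of calls here and below are not set beside the share of all genes called. They show only how the member calls moved. Causes were not tested.

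Leaving out 1 array at a time gave 6 calls throughout in EpiSC against LIF plus serum, 2 to 6 in 2i, 3 to 7 in 2iSB, 8 to 10 in EpiSC against 2i and against 2iSB, and 0 in 2iSB against 2i. The medians ran from -0.34 to -0.17, -0.33 to -0.16, -0.34 to -0.25, -0.01 to 0.08, 0.01 to 0.14 and -0.13 to 0.03 in the same order, and 8 to 11 pairs passed, the fewest without LIF plus serum array 2. Replicate numbers did not pair the arrays: the lowest correlation of same-numbered deviations was negative for each number. The replicate block gave 6, 2, 5, 9, 8 and 0 calls and 9 pairs. Dim probes have only bounds, and 4 arrays a group limit what smaller differences can be called.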

Other observations

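Within LIF plus serum, the arrays coded LSFF (slide 2) differed from those coded LS (slide 1) in several members. The largest gaps among the members were in Pfkfb3, higher by 1.61 in LSFF, and in Slc16a1, lower by 1.07, then Hk1, higher by 0.98; Pdk1 was lower by 0.75. Each code has 2 arrays and a slide of its own in this group, so no test was made.

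Within 2iSB, array 1 was the highest of its group in Hk1 (5.85), Pfkp (4.57), Aldoc (6.38), Pgam2 (0.58), Eno2 (0.20), Eno3 (1.85) and Slc16a3 (5.91), and array 3, from slide 2, the lowest in Aldoc (4.52), Pgam2 (-0.81), Eno2 (-3.04) and Eno3 (-0.13). These arrays were chosen after their values were seen.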
